A study of Mus musculus with 21 samples.

Results

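RNA binding on chromatin was compared between SRSF3-GFP and SRSF7-GFP by fractionation iCLIP in P19 cells, a line derived from a mouse embryonal carcinoma. The comparison takes the chromatin samples, 7 of the 21 in the series. They are 4 replicates from cells expressing the fusion protein SRSF3-GFP and 3 replicates from cells expressing SRSF7-GFP, and the other 14 samples are nucleoplasm and cytoplasm of the same cell lines. Cells of both groups were irradiated at 254 nm with 100 mJ/cm2 before fractionation and carried no other stated treatment. Replicates were pooled by the authors into 1 list of positions per group, so each protein has 1 value per quantity and no spread between replicates could be measured. No p-value is therefore given, and all intervals are 95% intervals for counting error alone. The labels name no untagged line and no RNA input, and RNA levels were not measured, so stronger binding and a more abundant RNA cannot be told apart. The labels give 2 of the 3 SRSF7 chromatin replicates the same adapter barcode, and the pooled list does not allow their separation.

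SRSF3 and SRSF7 are small SR proteins, with an RNA recognition motif and a domain rich in serine and arginine. SRSF7 also has a zinc knuckle, which SRSF3 lacks. Both act in splicing and bind messenger RNA as adaptors for nuclear export, and both genes are known to be regulated by SR proteins through a poison exon, an exon whose inclusion directs the messenger RNA to decay. In iCLIP, ultraviolet light links the protein to RNA at contact sites, and reverse transcription of the purified RNA stops beside the link, so that cDNA ends map bound nucleotides. The chromatin fraction holds RNA still attached to its template, including unspliced pre-mRNA, together with RNA retained in nuclear bodies.

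The SRSF3 list was far larger than the SRSF7 list. It held 870234 positions with 1768665 cDNAs, against 76172 positions with 248498 cDNAs for SRSF7, which is 11.4 times the positions and 7.12 times the cDNAs. Every value is therefore given as a share of the list it comes from. Each listed position is 1 nucleotide of build mm9 that passed the false discovery rate of 0.05 set by the authors, and sites below that threshold are not listed, bound or not. A deeper list admits weaker positions. When the SRSF3 list was thinned at random to 248498 cDNAs it held 178342 positions, 2.34 times the SRSF7 number. Thinning drew from positions already listed at full depth, and peaks were not called again. The thinned number therefore cannot show how many positions a shallower SRSF3 list would hold.

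The 2 chromatin lists divided their cDNAs differently between long and short loci. SRSF3 cDNAs were spread thinly along long intervals such as those at Thada, Kcnj3 and Pdzrn3, whereas SRSF7 cDNAs lay to a larger extent in short, heavily covered loci such as the 45S ribosomal RNA precursor, U8 and 7SK. Positions of all 6 lists of the series were joined into loci where gaps on 1 strand were at most 10000 nt. Loci spanning over 100 kb held 15.1% of SRSF3 cDNAs and 3.51% of SRSF7 cDNAs, a ratio of 4.30 (4.21 to 4.39). For loci of 10 to 100 kb the shares were 53.2% for SRSF3 and 31.3% for SRSF7, a ratio of 1.70. The order was the opposite for short loci. Those of 1 to 10 kb held 23.4% of SRSF3 and 42.9% of SRSF7 cDNAs, a ratio of 0.545 (0.542 to 0.549). Those under 1 kb held 8.36% of SRSF3 and 22.4% of SRSF7 cDNAs, a ratio of 0.374 (0.370 to 0.378). With mitochondrial cDNAs and the 10 highest loci left out, the 4 ratios kept this order, at 3.94, 1.56, 0.540 and 0.278 from the longest class to the shortest. The classes depend on the joining gap, and the ratio for loci under 1 kb was 0.707 with a gap of 1000 nt and 0.569 with positions of at least 3 cDNAs. Most positions that define the spans come from the SRSF3 chromatin list, so span and SRSF3 depth are linked by construction. Peak calling may also have differed between the proteins, since the SRSF7 track name carries a term for regions treated as one. Its effect on these shares was not tested.

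Listed SRSF7 cDNAs were concentrated in fewer loci, and the possible difference in peak calling applies here as well. The 10 highest loci of each list held 18.7% of SRSF3 cDNAs (18.7 to 18.8) and 35.3% of SRSF7 cDNAs (35.1 to 35.5), and the 100 highest held 38.8% and 62.1%. Counting down from the highest locus, 211 loci were needed to reach 50% of SRSF3 cDNAs, against 41 for SRSF7. Of the 10 highest loci, 5 were the same in both lists, and of the 100 highest, 48 were the same. The locus at the 45S precursor on chromosome 17 led both lists. By chromosome, the SRSF3 over SRSF7 ratio of shares was lowest among the autosomes on chromosome 17 (0.538), which carries that locus and Srsf7, and on chromosome 19 (0.664), which carries Malat1. It was highest on chromosome X (2.02) and chromosome 6 (1.94).

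For the comparison by locus, a locus needed at least 50 cDNAs in both lists together and at least 10 in each, and was called when the exact interval of its ratio of shares lay beyond 2-fold. Of 1358 loci compared, 291 held a larger share of SRSF3 cDNAs (21.4%) and 234 a larger share of SRSF7 cDNAs (17.2%). The remaining 833 were called in neither direction, and the median log2 ratio of SRSF3 to SRSF7 over all 1358 was 0.19. The minimum of 10 cDNAs in each list weighs unequally, because the SRSF3 list is 7.12 times as deep. An SRSF3-higher call needs far more SRSF3 cDNAs than an SRSF7-higher call does. The spans and numbers of positions of the 2 sets are therefore partly set by this filter. Of the 291 SRSF3-higher loci, 63 spanned over 100 kb, 219 spanned 10 to 100 kb, 9 spanned 1 to 10 kb and 0 were shorter. Of the 234 SRSF7-higher loci, 1 spanned over 100 kb, 56 spanned 10 to 100 kb, 61 spanned 1 to 10 kb and 116 were shorter than 1 kb. Of all 1358 compared loci, 89 spanned over 100 kb, 809 spanned 10 to 100 kb, 244 spanned 1 to 10 kb and 216 were shorter.

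The 2 sets also differed in how cDNAs were stacked, though their numbers of positions follow in part from the same filter. SRSF3-higher loci had a median of 568 SRSF3 positions with 1.48 cDNAs per position, and a median of 18 SRSF7 positions with 1.21 cDNAs per position. Together they held 23.3% of SRSF3 cDNAs and 4.66% of SRSF7 cDNAs. SRSF7-higher loci had a median of 27 SRSF3 positions and 21 SRSF7 positions, with 4.58 and 5.84 cDNAs per position, so both proteins were stacked there. Their tallest position alone held a median of 21.2% of the SRSF3 cDNAs and 22.2% of the SRSF7 cDNAs of the locus. As a set they held 17.9% of SRSF3 cDNAs and 52.2% of SRSF7 cDNAs.

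The balance of calls depended on what was counted and on which loci passed the minimums. After thinning SRSF3 to the SRSF7 total, 272 loci were higher in SRSF3 and 107 in SRSF7, of 864 compared. With positions counted in place of cDNAs the split was 73 and 236 of 954. With mitochondrial cDNAs and the 10 highest loci left out it was 209 and 297 of 1346. With positions of at least 3 cDNAs it was 72 and 111 of 467. With loci joined at 1000 nt it was 159 and 262 of 1185, and with at least 200 cDNAs per locus 291 and 113 of 880. Removing mitochondrial cDNAs and the 10 highest loci from the totals moved the median log2 ratio of the compared loci by -0.33, to -0.14, and counting positions moved it to -0.83. Positions of at least 3 cDNAs held 48.0% of SRSF3 and 70.1% of SRSF7 cDNAs. Under that minimum the change of totals alone raises the ratio of every locus. Directions below are given on all cDNAs, and those that turned under these scalings are named beside the value.

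**Figure D1:**
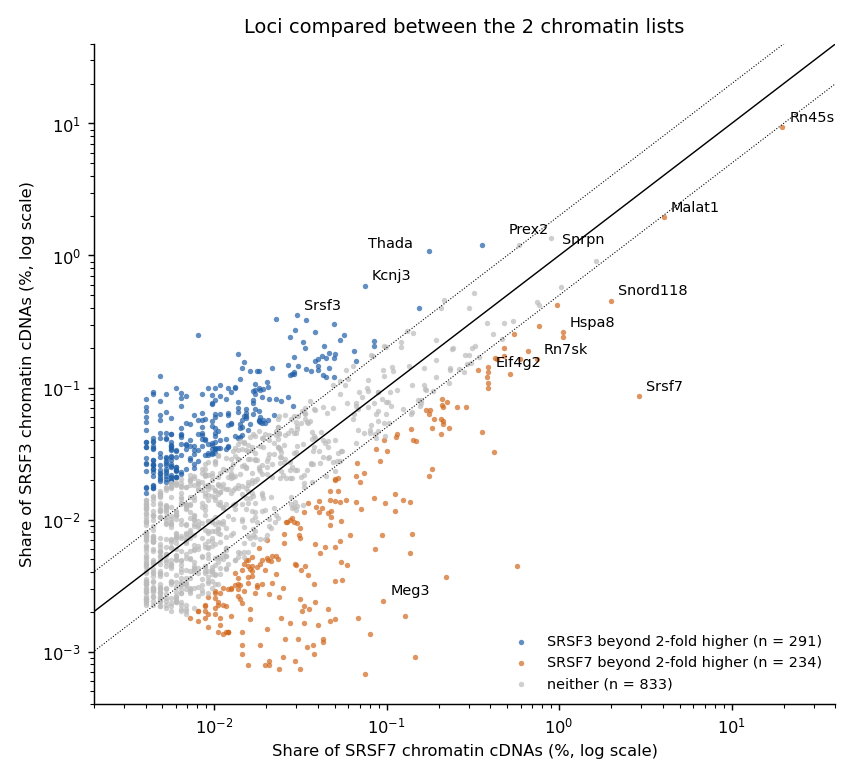
Share of each list's chromatin cDNAs at the 1358 compared loci, SRSF3 on the vertical and SRSF7 on the horizontal axis, both in percent on log scales. Points are loci, the solid line marks equal shares and the dotted lines 2-fold; 291 loci were beyond 2-fold higher in SRSF3, 234 in SRSF7, and the 45S locus (Rn45s) and Srsf7 lie far to the right.

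Loci that only 1 protein listed lay almost all on the SRSF3 side. With at least 50 cDNAs in 1 list and none in the other, 984 loci were listed for SRSF3 alone and 8 for SRSF7 alone. The SRSF3 loci held 157144 cDNAs, 8.88% of that list, and the largest, on chromosome 7 (141072553 to 141160384, minus strand), held 5186 cDNAs over 3630 positions. The 8 SRSF7 loci held 602 cDNAs, 0.242% of that list, and the largest had 153 cDNAs over 132 positions on chromosome 13 (84531427 to 84548663, plus strand). The SRSF3 list is 7.12 times as deep, and absence from the SRSF7 list was not read as absence of binding.

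The lists carry no gene names. Names were attached to intervals from general knowledge of mm9 and set against a RefSeq gene table of another build, GRCm38.p6, for chromosome, order and length only. Of 31 names, 30 were in that table, all 30 were on the same chromosome, and on the 8 chromosomes with several names the order was the same in both. For 15 loci the span was 70 to 150% of the RefSeq gene length. The interval at Rian spanned 57776 nt and the gene 57772 nt, and at Eif4g2 14982 and 15046 nt. Joining can take in a neighbouring gene, as at Snhg3, where the locus spans 32384 nt and the gene 1754 nt. Snhg1, Hspa8, Snhg3, Snord118, Rpl3 and 11 long genes were named after their values were seen.

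All 3 named loci of structured RNAs were called higher in SRSF7, as were 17.2% of all compared loci, and Snord118 among them was named after its value was seen. The 45S ribosomal RNA precursor, from which the large rRNAs are cut, had 165908 SRSF3 cDNAs over 3007 positions and 48971 SRSF7 cDNAs over 2675 positions. These are 9.38% of the SRSF3 list and 19.7% of the SRSF7 list, a log2 ratio of -1.07 (-1.09 to -1.06). The locus lies on chromosome 17 (39979938 to 39985047, plus strand), and reads of other 45S copies in the genome may be placed there. The tallest nucleotide was the same in both lists, with 1343 cDNAs in SRSF3 and 716 in SRSF7. When positions with fewer than 3 cDNAs were left out, the log2 ratio was -0.51, and the locus was no longer beyond 2-fold. That cut lowers the SRSF3 total more than the SRSF7 total, which raises the ratio by itself.

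U8, the box C/D small nucleolar RNA Snord118 that acts in rRNA processing, showed a wider gap. Its locus on the plus strand of chromosome 11 held 8062 SRSF3 cDNAs over 95 positions and 4971 SRSF7 cDNAs over 74 positions. The shares were 0.456% for SRSF3 and 2.0004% for SRSF7, a log2 ratio of -2.13 (-2.18 to -2.08). Single nucleotides carried large stacks, 924 cDNAs in SRSF3 and 501 in SRSF7, and these lay 5 nt apart. The 7SK RNA (Rn7sk), which holds the elongation factor P-TEFb inactive, had 2884 SRSF3 cDNAs and 1844 SRSF7 cDNAs within 126 nt. Its shares were 0.163% for SRSF3 and 0.742% for SRSF7, a log2 ratio of -2.19 (-2.27 to -2.10).

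Mitochondrial RNA was scarce in both chromatin lists, with 3472 SRSF3 cDNAs (0.196%, 0.190 to 0.203) and 799 SRSF7 cDNAs (0.322%, 0.300 to 0.345), against 16.7% of SRSF3 and 8.89% of SRSF7 cDNAs in cytoplasm. The ratio of shares was 0.611 (0.565 to 0.660), and it turned to 1.12 (1.03 to 1.23) when positions with fewer than 3 cDNAs were left out. The direction therefore depends on whether positions with 1 or 2 cDNAs are counted. Leaving them out also changes the totals, since the remaining positions held 48.0% of all SRSF3 and 70.1% of all SRSF7 cDNAs. In both lists most mitochondrial cDNAs were on the plus strand, 3132 of the SRSF3 cDNAs and 707 of the SRSF7 cDNAs.

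Of 5 hosts of small nucleolar RNAs, whose introns carry snoRNA sequences, 0 were higher in SRSF3 and 3 in SRSF7, where 21.4% and 17.2% of all compared loci were called. The 3 called hosts, Hspa8, Snhg3 and Snhg1, were named after their values were seen, so the count describes that choice. With positions of at least 3 cDNAs, Snhg3 stood at -0.83 and Snhg1 at -0.68, within 2-fold. Hspa8, which encodes the heat shock cognate chaperone, had 4663 SRSF3 cDNAs (0.264%) and 2602 SRSF7 cDNAs (1.05%), a log2 ratio of -1.99 (-2.06 to -1.92). The locus at Snhg3 had 5184 SRSF3 and 1905 SRSF7 cDNAs, at -1.39 (-1.46 to -1.31). In both loci the tallest nucleotide was the same in the 2 lists. At Hspa8 that nucleotide held 199 SRSF3 cDNAs and 176 SRSF7 cDNAs, and at Snhg3 298 and 136.

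The other 3 hosts were closer to equal shares. Snhg1 had 7450 SRSF3 and 2414 SRSF7 cDNAs, at a log2 ratio of -1.21 (-1.27 to -1.14). Gas5, a growth arrest transcript that is spliced but encodes no known protein, had 7813 SRSF3 and 1842 SRSF7 cDNAs, at -0.75 (-0.82 to -0.67), which did not reach 2-fold. Snrpn, the imprinted gene of a spliceosomal Sm protein, ran the other way at 0.59 (0.52 to 0.65). It had 23933 cDNAs over 7265 positions for SRSF3 and 2241 over 1460 positions for SRSF7, and turned to -1.20 when positions were counted. The interval spans 44523 nt and the RefSeq gene 467683 nt, so the value covers part of the gene. The locus with the lowest ratio of all, described below without a name, lies on the same strand of chromosome 7. Whether it belongs to the same gene was not determined. Within Gas5 the tallest positions lay 1 nt apart, with 160 cDNAs in SRSF3 and 87 in SRSF7.

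Nuclear long noncoding RNAs were bound unevenly. Malat1, an abundant RNA of nuclear speckles, had 34390 SRSF3 cDNAs over 2427 positions and 10067 SRSF7 cDNAs over 1709 positions. The shares were 1.94% for SRSF3 and 4.05% for SRSF7, a log2 ratio of -1.06 (-1.09 to -1.03). It ranked behind only the 45S locus in both lists.

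Both proteins were listed along much of Malat1, but stretches of it were listed for 1 protein alone. Of the 1709 SRSF7 positions, 1054 were also SRSF3 positions. The tallest positions lay 2704 nt apart, with 252 cDNAs in SRSF3 and 60 in SRSF7. From 5800986 to 5802342 on chromosome 19, minus strand, a stretch of 1357 nt towards the 5′ end, 0 positions were listed for SRSF3, whereas SRSF7 had 2602 cDNAs over 427 positions, 25.8% of its cDNAs in the locus. The stretch was chosen from these values. In the lists of the other fractions it held 5 SRSF3 cDNAs and 1309 SRSF7 cDNAs in nucleoplasm, and 1 and 571 in cytoplasm. SRSF3 coverage elsewhere in the RNA was dense. In bins of 100 nt the Pearson correlation of the chromatin profiles was 0.38, the lowest of 46 loci that had at least 500 cDNAs in each list and spanned at least 2000 nt. The 46 correlations are a description over bins of 2 pooled lists. Their median was 0.93, and 37 were over 0.8. By Spearman correlation Malat1 was at 0.46, against a median of 0.55.

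**Figure D2:**
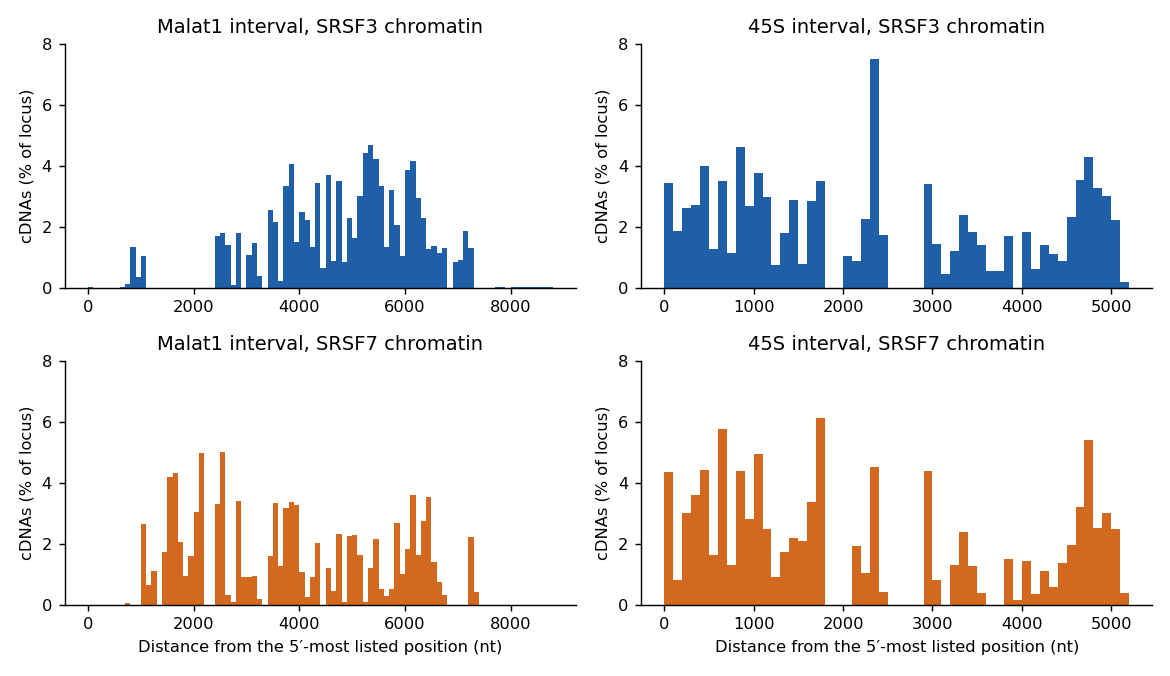
cDNAs per 100 nt bin, as a percentage of the cDNAs of the locus, along Malat1 (left) and the 45S locus (right), for SRSF3 chromatin (top) and SRSF7 chromatin (bottom); distance runs 5′ to 3′ from the 5′-most listed position. In Malat1 a stretch of 1357 nt without listed SRSF3 positions holds 25.8% of the SRSF7 cDNAs, while the 45S profiles have a Pearson correlation of 0.86.

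Meg3, Rian and Mirg, noncoding RNAs made in a row from the imprinted Dlk1-Dio3 region on chromosome 12, held mostly SRSF7 cDNAs in absolute number, in spite of the smaller list. Meg3 had 43 SRSF3 cDNAs over 29 positions and 237 SRSF7 cDNAs over 165 positions, a log2 ratio of -5.29 (-5.80 to -4.82). Rian, a host of C/D snoRNAs, had 7 and 234 cDNAs, and Mirg, a host of microRNAs, had 1 and 47. Both fell under the minimum of 10 SRSF3 cDNAs and were not called. Neat1, the scaffold RNA of paraspeckles, had 54 SRSF3 cDNAs over 38 positions and was not in the SRSF7 list. Of the 5 noncoding RNAs, 2 were compared, of which 0 were higher in SRSF3 and 2 in SRSF7, where 21.4% and 17.2% of all compared loci were called. With positions of at least 3 cDNAs, Malat1 stood at -0.41, within 2-fold, and Meg3 at -4.04.

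Each protein held a far larger share of its cDNAs at its own gene than the other protein did. At Srsf3 on chromosome 17 there were 6261 SRSF3 cDNAs over 1678 positions and 75 SRSF7 cDNAs over 62 positions. These are 0.354% of the SRSF3 list and 0.0302% of the SRSF7 list, a log2 ratio of 3.55 (3.22 to 3.90). At Srsf7, also on chromosome 17, there were 1517 SRSF3 cDNAs over 588 positions and 7222 SRSF7 cDNAs over 1711 positions. These are 0.0858% and 2.91%, a log2 ratio of -5.08 (-5.16 to -5.00), so that Srsf7 came after only the 45S locus and Malat1 in the SRSF7 list. The samples carry tagged copies of these genes, whose levels were not measured, and transcripts of the tagged and the untagged copy cannot be told apart in the lists.

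Within Srsf7 the tallest nucleotide was the same for both proteins, with 35 SRSF3 cDNAs and 40 SRSF7 cDNAs, the Pearson correlation over 100 nt bins was 0.94 (Spearman 0.72), and the single bin that was highest for SRSF3 held 12.1% of its cDNAs there and 9.57% of those of SRSF7. At Srsf3 the tallest positions lay 581 nt apart, with 56 cDNAs in SRSF3 and 3 in SRSF7. The small SRSF7 count at Srsf3 limits any comparison of profile there. Sfpq, a splicing factor and paraspeckle protein, had 2421 SRSF3 cDNAs (0.137%) and 237 SRSF7 cDNAs (0.0954%), a log2 ratio of 0.52 (0.33 to 0.72) that did not reach 2-fold and turned to -0.91 when positions were counted.

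The near surroundings of both genes differed in the same direction as the genes. Within 100 kb of Srsf7, outside the gene locus and over both strands, SRSF3 had 81 cDNAs, or 0.00458% of its list, and SRSF7 had 1576, or 0.634%. Of these SRSF7 cDNAs 1407 were on the strand of the gene, in the interval at 80637679 to 80689490, which held 78 SRSF3 cDNAs (log2 ratio -7.00, -7.35 to -6.67). Of the 8 loci listed for SRSF7 alone, 2 lay in this region, on the opposite strand. From 100 to 300 kb away the order was the opposite, with 235 cDNAs for SRSF3 (0.0133%) and 3 for SRSF7 (0.00121%). Around Srsf3, most of the cDNAs outside the gene were on the opposite strand. SRSF3 had 746 cDNAs within 100 kb (0.0422%) and SRSF7 had 24 (0.00966%), and from 100 to 300 kb SRSF3 had 408 (0.0231%) and SRSF7 had 3 (0.00121%). Of those within 100 kb, 57 SRSF3 cDNAs and 10 SRSF7 cDNAs were on the strand of the gene. What set the edges of these regions was not tested.

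**Figure D3:**
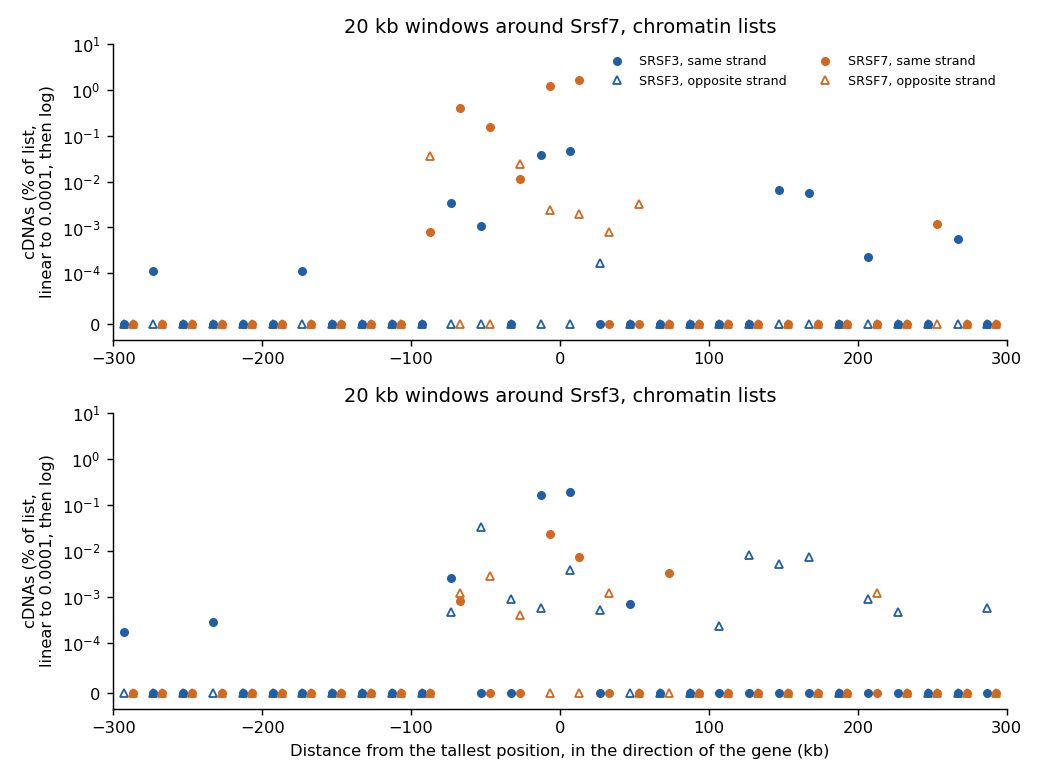
Chromatin cDNAs in percent of each list in 20 kb windows around Srsf7 (top) and Srsf3 (bottom), on a vertical scale linear to 0.0001% and logarithmic above; the horizontal axis is the distance in kb from the tallest position, in the direction of the gene, and filled circles and open triangles mark the strand of the gene and the opposite strand. High SRSF7 values extend past Srsf7 on 1 side and stop within 100 kb.

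Coding messenger RNAs fell on both sides. Hspa8 and Snrpn also encode proteins but were counted among the snoRNA hosts above. Whether the 4 genes counted here host snoRNAs was not examined, so the groups are not exclusive. Of 4 named, of which Rpl3 was chosen after its value was seen, 2 were higher in SRSF3 and 1 in SRSF7, where 21.4% and 17.2% of all compared loci were called. Their median log2 ratio was 0.34, against 0.19 over all compared loci. Scd2, a stearoyl-CoA desaturase gene, had 604 SRSF3 cDNAs over 298 positions and 25 SRSF7 cDNAs over 22 positions, at 1.76 (1.19 to 2.40). Gja1, the gene of the gap junction protein connexin 43, had 345 and 14 cDNAs, at 1.79 (1.03 to 2.68). Neither gene had a tall position in the SRSF7 list, where the highest count at 1 nucleotide was 2 in both.

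Eif4g2, which encodes a translation initiation factor related to eIF4G, was higher in SRSF7. It had 2303 SRSF3 cDNAs over 397 positions and 965 SRSF7 cDNAs over 93 positions, a log2 ratio of -1.58 (-1.69 to -1.47). The tallest positions lay 9 nt apart, with 93 cDNAs in SRSF3 and 55 in SRSF7. At Rpl3, a ribosomal protein gene, the counts were 1905 for SRSF3 and 568 for SRSF7, at -1.09 (-1.22 to -0.95), which was not called. A position with 109 SRSF7 cDNAs held 19.2% of all SRSF7 cDNAs of that locus, and the tallest SRSF3 position, 35 nt away, held 6.40% with 122 cDNAs.

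Most of the 11 long genes are named here because they lie among the 10 loci with the highest SRSF3 share or the 10 with the highest ratio. Huwe1 and Pdzrn3 lie in neither set and were also named after their values were seen. The direction of the 11 is therefore a description of that choice. Of these 11, 8 were called higher in SRSF3 and 0 in SRSF7. Thada had 19018 SRSF3 cDNAs over 10083 positions and 440 SRSF7 cDNAs over 342 positions, a log2 ratio of 2.60 (2.47 to 2.74). Kcnj3, a gene of an inwardly rectifying potassium channel, had 10405 and 185 cDNAs, at 2.98 (2.77 to 3.20). Coverage was flat, since no nucleotide of Kcnj3 had more than 15 SRSF3 cDNAs.

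Pdzrn3, Magi2, Hecw2, Pgap1, Rybp and Ctbp2 had log2 ratios from 3.86 to 4.37, with 10 to 57 SRSF7 cDNAs each. Rybp belongs to Polycomb complexes, Ctbp2 is a transcriptional corepressor and Hecw2 a ubiquitin ligase. The 3 long genes that were not called had more SRSF7 cDNAs. Prex2, which encodes an exchange factor for Rac, had 21236 SRSF3 and 1456 SRSF7 cDNAs, at 1.04 (0.96 to 1.11). Huwe1, a ubiquitin ligase gene on chromosome X, had 8071 and 531 cDNAs, at 1.09 (0.97 to 1.22). Prdm2, a gene of a PR domain protein, had 9133 and 800, at 0.68 (0.58 to 0.79). All 3 turned when positions were counted, to -0.11 at Prex2, -0.24 at Huwe1 and -0.73 at Prdm2.

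Several of the most extreme loci were left without a name. The highest ratio of all, 4.95 (4.32 to 5.66), lay on chromosome 3 (93137506 to 93215679, minus strand), with 4404 SRSF3 cDNAs over 3587 positions and 20 SRSF7 cDNAs over 18. The lowest, -7.34 (-8.17 to -6.62), lay on chromosome 7 (67331034 to 67365292, minus strand), with 16 SRSF3 cDNAs and 365 SRSF7 cDNAs over 294 positions. It was unlike most SRSF7-higher loci in that its coverage was flat, with at most 5 cDNAs at 1 nucleotide. Others were very short. On chromosome 17, 17 nt of the plus strand (47985781 to 47985797) had 12 SRSF3 cDNAs on 1 position and 186 SRSF7 cDNAs on 10, at -6.79 (-7.76 to -5.95). On chromosome 12, 170 nt of the minus strand (103491728 to 103491897) had 33 and 318 cDNAs, at -6.10 (-6.66 to -5.58).

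SRSF7 cDNAs were stacked on fewer nucleotides than SRSF3 cDNAs. Positions of at least 10 cDNAs, called tall here, numbered 13745 for SRSF3 and 4726 for SRSF7. They held 27.7% of SRSF3 cDNAs (27.6 to 27.7) and 52.2% of SRSF7 cDNAs (52.0 to 52.4), a ratio of 0.530. In the SRSF3 list thinned to the SRSF7 total, tall positions held 12.9%. That list matches the SRSF7 list in cDNAs only, since peaks were not called again and it still has 2.34 times the positions.

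On the full lists the gap was narrower at greater heights. Positions of at least 50 cDNAs held 14.99% of SRSF3 and 18.8% of SRSF7 cDNAs, and those of at least 100 held 7.59% and 7.98%. In the thinned SRSF3 list the same heights held 0.801% and 0.186%. There the difference from SRSF7 in percentage points became smaller with height, but as a ratio the SRSF3 share fell further below it. Positions with a single cDNA made up 70.4% of SRSF3 positions and 65.4% of SRSF7 positions. The 45S locus held 2706 of the tall SRSF3 positions and 1334 of the tall SRSF7 positions, and the rest of each set was spread over many loci. Counting every locus with a tall position, there were 1303 for SRSF3 and 546 for SRSF7.

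**Figure D4:**
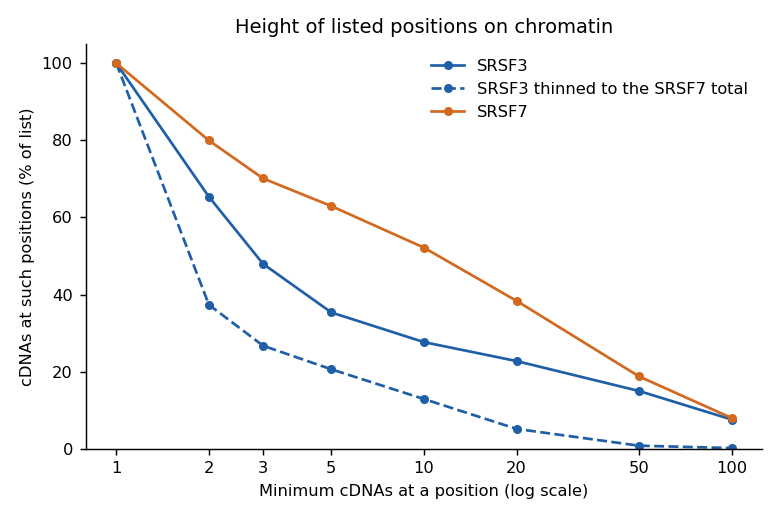
Percentage of each chromatin list's cDNAs that lie at positions of at least the height on the horizontal axis (cDNAs at the nucleotide, log scale), for SRSF3, for SRSF3 thinned to the SRSF7 total, and for SRSF7. At 10 cDNAs the values are 27.7%, 12.9% and 52.2%, and at 100 cDNAs SRSF3 and SRSF7 stand at 7.59% and 7.98%.

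Tall positions were shared between the proteins far more often than single ones. Within 5 nt on the same strand, 7.62% of all SRSF3 positions had an SRSF7 position and 51.3% of all SRSF7 positions had an SRSF3 position. Among tall positions the shares were 76.2% for SRSF3 (75.5 to 76.9) and 92.6% for SRSF7 (91.9 to 93.4). Among positions with a single cDNA they were 4.56% and 43.3%. The SRSF3 list is 11.4 times as long as the SRSF7 list, which bears on both shares, and no value for unrelated lists was computed.

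Exact nucleotides coincided at the top of the lists. Of the 1000 tallest positions of each protein, 566 were the same nucleotide, and 535 were the same when the 45S locus was left out. Of the 100 tallest, 45 were the same nucleotide. Leaving out the mitochondrial genome and the 45S locus, 61.8% of 10939 tall SRSF3 positions had a listed SRSF7 cDNA on the same nucleotide, and 86.3% of 3381 tall SRSF7 positions had an SRSF3 cDNA there. At 40 to 50 nt away the values were 12.4% and 21.2%. Between 1 and 20 nt the averages were similar on both sides, at 33.8% upstream and 35.7% downstream of tall SRSF3 positions, and 58.4% upstream and 54.2% downstream of tall SRSF7 positions.

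**Figure D5:**
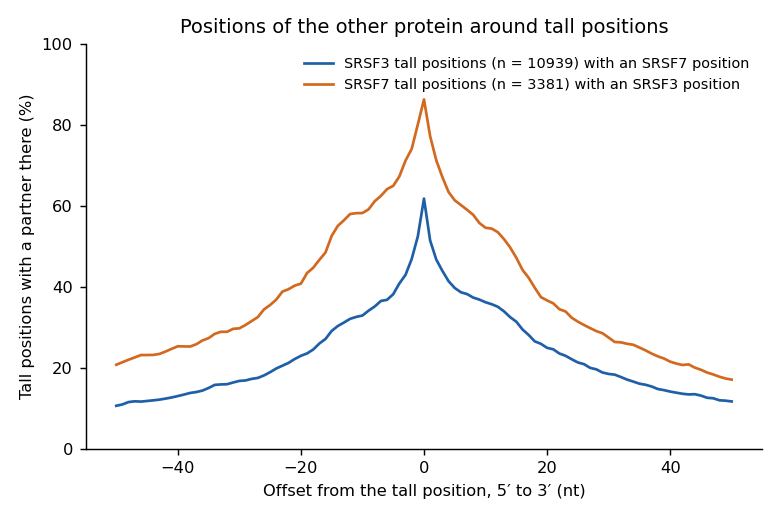
Percentage of tall positions of one protein (at least 10 cDNAs, without the mitochondrial genome and the 45S locus) that have a listed position of the other protein at each offset in nt, 5′ to 3′, for 10939 SRSF3 and 3381 SRSF7 tall positions. Both curves peak at offset 0, at 61.8% and 86.3%, and fall with distance on both sides.

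Joined into clusters at gaps of up to 30 nt over the 2 chromatin lists, 6901 clusters held positions of both proteins. They were 4.63% of the clusters with SRSF3 and 36.6% of those with SRSF7, and they held 39.4% of SRSF3 cDNAs and 82.1% of SRSF7 cDNAs. Clusters of SRSF3 alone numbered 142018, with 60.6% of SRSF3 cDNAs, and clusters of SRSF7 alone 11953, with 17.9% of SRSF7 cDNAs. The median width was 34 nt for common clusters, 13 nt for SRSF3 clusters and 5 nt for SRSF7 clusters. Most SRSF7 cDNAs thus lay in clusters that also held a listed SRSF3 position, of whatever height. The 45S locus, with 19.7% of SRSF7 cDNAs, was not left out here. The SRSF3 list has 11.4 times the positions, which bears on these shares, and no value for unrelated lists was computed.

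Snord118, Hspa8 and Eif4g2 had Pearson correlations over 100 nt bins of 0.998, 0.994 and 0.978, and Gas5 had 0.96. The Spearman correlations, which weigh all bins alike, were lower, at 0.62, 0.53 and 0.31 for the first 3 and 0.73 for Gas5. The lowest Pearson values after Malat1 belonged to Huwe1 (0.47), an unnamed locus on chromosome 13 (0.47), an unnamed locus on chromosome 8 (0.49) and Prex2 (0.51), which are long and thinly covered in the SRSF7 list. Rpl3, at 0.62, spans 14002 nt.

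Most comparable loci that were called on chromatin did not keep their direction in the other fractions. It was kept at 134 of 298 loci in nucleoplasm and at 77 of 230 in cytoplasm. Only the SRSF7-higher loci in nucleoplasm were on their chromatin side more often than all comparable loci. Of the loci higher in SRSF3 on chromatin, 154 could be compared in nucleoplasm, and 51 of these had a larger SRSF3 share there (33.1%, against 45.7% of all 755 loci comparable in both fractions). In cytoplasm it was 16 of 74 (21.6%, against 49.9% of 537). Of the loci higher in SRSF7 on chromatin, 83 of 144 had a larger SRSF7 share in nucleoplasm (57.6%, against 54.3%) and 61 of 156 in cytoplasm (39.1%, against 50.1%). Beyond 2-fold in cytoplasm, 4 SRSF3-higher loci lay on the same side and 23 on the opposite side. For SRSF7-higher loci these were 9 and 33. In nucleoplasm they were 19 and 42 for SRSF3-higher loci, and 26 and 11 for SRSF7-higher loci. Across loci the log2 ratios on chromatin had a Spearman correlation of -0.13 with those in nucleoplasm (n = 755) and -0.36 with those in cytoplasm (n = 537), with Pearson values of -0.07 and -0.31. These loci share the depth of the pooled lists, so the correlations are descriptions. The SRSF3 list had more positions than the SRSF7 list on chromatin, and fewer in nucleoplasm and cytoplasm. Whether this bears on the directions was not tested.

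Some named loci kept their side in all fractions. Srsf3 had log2 ratios of 3.55 on chromatin, 3.34 in nucleoplasm and 3.37 in cytoplasm. Srsf7 had -5.08, -6.62 and -8.80 in the same order. Malat1 stayed on the SRSF7 side at -1.06, -1.90 and -1.26, and Meg3 at -5.29, -5.39 and -2.54. The 2 genes of the tagged proteins and these 2 noncoding RNAs thus had the same sign in 3 of 3 fractions, each from separate lists of the same cell lines.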

How the data were processed

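The deposited files are lists of single-nucleotide positions with a signed whole-number cDNA count (unit other, since plain counts carry no sign), per the file headers and the values; the sign was read as the strand. Per the file headers, the authors kept positions with a false discovery rate under 0.05 in 100 permutations, a neighbourhood of 15 nt and Ensembl 59 regions. The SRSF7 track name also carries a term for regions treated as one, so peak calling may have differed between the proteins. The build is mm9, per the submitters' processing notes. How reads were aligned and duplicates removed is not given in the sources used here. Replicates were pooled by the authors.

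Ratios of shares carry exact conditional binomial intervals and shares exact Clopper-Pearson intervals, both at 95%, for counting error only. Cut-offs stand in the report. Loci named with values are the 10 highest of each list, the 10 highest and 10 lowest ratios, and a list of transcripts, of which fewer are printed. Snhg3, Rpl3, Huwe1 and Pdzrn3 lie outside these sets and were added after their values were seen. The members and lists were chosen with earlier results of these data known. The locus comparison was tested on simulated data. Tools were Python 3.11.15 with scipy 1.17.1, pandas 2.3.3, numpy 2.4.6 and matplotlib 3.10.9. Alternatives were a minimum height, thinning, counts of positions, other gaps, distances and minimums, and totals that leave out mitochondrial cDNAs and the 10 highest loci.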

Additional observations from a re-analysis of the deposited data

Results flagged for a closer look

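These results had opposite directions on chromatin and in another fraction, judged by the exact intervals; the differences themselves were not tested, because each group is 1 pooled list. The ratio of the mitochondrial share, SRSF3 over SRSF7, was 0.611 on chromatin, 6.79 in nucleoplasm and 1.88 in cytoplasm. The ratio at the 45S locus was 0.476 on chromatin, 2.73 in nucleoplasm and 1.26 in cytoplasm. The order of the list sizes also differed between fractions. SRSF3 had 109400 positions and SRSF7 130679 in nucleoplasm, and 58686 and 142444 in cytoplasm, against 870234 and 76172 on chromatin. In each fraction the list with fewer positions had the larger mitochondrial and 45S shares. Whether list size bears on the directions in this section was not tested.

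Among loci beyond 2-fold higher in SRSF7 on chromatin, U8 (Snord118) had a log2 ratio of 3.66 in cytoplasm against -2.13 on chromatin, with 3219 SRSF3 cDNAs and 365 SRSF7 cDNAs in cytoplasm. The locus at Snhg3 had 1.57 in cytoplasm against -1.39, and 7SK (Rn7sk) had 1.27 in cytoplasm against -2.19. Eif4g2 had 2.29 in nucleoplasm against -1.58, with 7023 SRSF3 cDNAs and 1256 SRSF7 cDNAs in nucleoplasm.

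Among loci beyond 2-fold higher in SRSF3 on chromatin, Thada had log2 ratios of -1.88 in nucleoplasm and -3.76 in cytoplasm against 2.60 on chromatin, the cytoplasm value from 8 SRSF3 cDNAs and 155 SRSF7 cDNAs. Pgap1 had -2.84 in cytoplasm against 4.10, and Scd2 had -2.04 in cytoplasm against 1.76.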

How the results depend on the processing

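No paired analysis was possible because replicates had been pooled before deposit, and no replicate could be left out for the same reason. Of the values recomputed under the alternatives, 16 stayed close to the first value, 36 moved beyond its counting interval or by over 1.5 times, and 1 reversed; the cause was not tested. With positions of at least 3 cDNAs, the mitochondrial ratio reversed to 1.12, the 45S ratio was 0.704, the 10 highest loci held 33.5% of SRSF3 and 48.4% of SRSF7 cDNAs, 72 loci were higher in SRSF3 and 111 in SRSF7 (of 467), the under 1 kb ratio was 0.569, 15.5% of SRSF3 and 77.5% of SRSF7 positions were near the other protein, 1656 clusters were common, and 51 of 96 chromatin calls kept their direction in nucleoplasm and 35 of 81 in cytoplasm (134 of 298 and 77 of 230 before). With SRSF3 thinned, the 10 highest loci held 18.6% of SRSF3 cDNAs, 107 loci were higher in SRSF7 (of 864), the under 1 kb ratio was 0.397, near positions were 13.9% of SRSF3 and 39.2% of SRSF7, and the ratio for tall positions was 0.247. With positions counted, the mitochondrial ratio was 0.211, the 45S ratio 0.0984, the 10 highest loci 8.04% of SRSF3 and 15.9% of SRSF7, and 73 loci were higher in SRSF3 (of 954). With loci joined at 1000 nt, the 10 highest SRSF3 loci held 16.6%, 159 loci were higher in SRSF3 (of 1185) and the under 1 kb ratio was 0.707. With loci from the chromatin lists alone that ratio was 0.385. With mitochondrial cDNAs and the 10 highest loci left out it was 0.278, and the ratio for tall positions 0.417. With tall set at 20 cDNAs that ratio was 0.593. At 0 nt and 30 nt, near positions were 3.15% and 11.7% of SRSF3 and 36.0% and 58.7% of SRSF7. With at least 200 cDNAs per locus, 113 loci were higher in SRSF7 (of 880), and calls kept their direction at 57 of 112 loci in nucleoplasm and 29 of 89 in cytoplasm. The unequal depth limits what SRSF7 could list: loci under 10 SRSF7 cDNAs were not compared.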
